A study of Mus musculus with 4 samples.

Results

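The 10 genes described here supply peptides to MHC class I molecules: the immunoproteasome subunits Psmb8, Psmb9 and Psmb10, the proteasome activator subunits Psme1 and Psme2, the peptide transporter subunits Tap1 and Tap2, tapasin (Tapbp) and its relative Tapbpl, and the trimming peptidase Erap1. They were chosen by gene name in the deposited count table, where all 10 were found among 54532 genes, and all 10 had enough counts to be among the 13518 genes tested. RNA of DC2.4 cells, an immortalised mouse dendritic cell line, was sequenced in 4 libraries: 2 from cultures given vehicle for 24 h and 2 from cultures given ginsenoside Rb1, a saponin of ginseng, at 10 uM for as long. The design asked how the compound-treated cells differ from the vehicle-treated controls. The cells of both groups carried no engineered allele or other agent that the labels name, and the line is a single established cell line grown in culture.

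The libraries held 17829784 to 18641021 counts. The dendritic cell label was checked against 14 myeloid and dendritic markers: 12 had counts in every library, and their summed level was 1388 and 1433 CPM (counts scaled to library size) with vehicle and 997 in both Rb1 libraries. Of the 11 markers tested 9 were lower and 2 higher, against 36.3% and 35.7% of all genes tested. The dendritic cell integrin gene Itgax was lower, averaging 28.9 CPM with vehicle and 3.32 with Rb1, and the dendritic cell factor gene Zbtb46 was higher, averaging 2.03 and 5.98 CPM. The leukocyte gene Ptprc was higher as well (110.3 and 239 CPM, log2 fold change 1.11). Once a trend with gene length, described below, was removed, the log2 fold change of Ptprc was 0.15. The class II gene H2-Ab1 had only 4 to 15 counts per library. Flt3, the receptor gene of dendritic cell progenitors, had 0 counts in all but Rb1 replicate 1, while the macrophage-associated genes Adgre1 and Csf1r were lower, averaging 473 and 256 CPM with vehicle and 282 and 123 with Rb1. Of 11 markers of T, B, NK, erythroid, fibroblast and epithelial cells, 6 were at 0 in all libraries, and the whole list summed to between 0.155 and 0.416 CPM. The part of the shift in myeloid markers in the results below was not tested.

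Cells display short peptides of their own proteins on MHC class I molecules for inspection by CD8 T cells. The proteasome cuts proteins into peptides, and in immune cells and under interferon its catalytic subunits PSMB5, PSMB6 and PSMB7 are replaced by PSMB8, PSMB9 and PSMB10, while the PA28 activator, a ring of PSME1 and PSME2, opens the barrel. TAP carries peptides into the endoplasmic reticulum, where ERAP1 shortens them and tapasin and TAPBPL select those that bind class I well. Dendritic cells use this route to prime T cells, and most of its genes are known interferon targets.

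The genes lie close together in part. Psmb9, Tap1, Psmb8 and Tap2 form a run on chromosome 17 in the coordinates of the table (GRCm38). Psmb9 (34181988 to 34187764, minus strand) overlaps the head of Tap1 (34187553 to 34197225, plus strand) by 212 bases. Psmb8 (34197721 to 34201454) follows 495 bases after Tap1, and Tap2 (34203527 to 34216321) 2072 bases after Psmb8. Tapbp (33915899 to 33929288) is 252699 bases before Psmb9 on the same chromosome. Psme1 (55578123 to 55581529) and Psme2 (55587441 to 55591113, minus strand) are 5911 bases apart on chromosome 14. Psmb10 is on chromosome 8 (105935735 to 105938444), Tapbpl on chromosome 6 (125223933 to 125231860), both on the minus strand, and Erap1 on chromosome 13 (74639568 to 74693201).

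Start-site windows of RefSeq (GRCm38.p6, 250 bases before to 50 after the start) were matched for 8 of the 10 genes. The windows of Tap1 and Psmb9, whose starts are 226 bases apart on opposite strands, share 275 bases, which lie in the first sequence below. Whether this stretch controls both genes was not tested. Those of Psme1 and Erap1 are shown because they alone among the members' windows hold the letters of the interferon-stimulated response element, and that of Psmb8 because it alone holds the STAT letters. All are given 5′ to 3′ on the strand of the gene, and capitals mark matches on either strand to any of 5 motifs. These are the interferon-stimulated response element (GAAA, any 2 bases, GAAA), the STAT site (TTC, any 3 bases, GAA), the NF-kB site (GGGA, any 4 bases, CC), CCAAT and the GC box (GGGCGG). No matches overlap in these 4 windows.
Tap1 (chr17:34187306-34187605, plus strand): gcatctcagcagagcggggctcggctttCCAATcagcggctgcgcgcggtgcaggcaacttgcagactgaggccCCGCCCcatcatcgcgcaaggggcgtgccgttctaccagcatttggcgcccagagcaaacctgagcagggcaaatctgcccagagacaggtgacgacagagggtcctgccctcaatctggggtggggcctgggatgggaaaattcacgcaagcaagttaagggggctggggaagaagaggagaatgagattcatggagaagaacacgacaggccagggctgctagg
Psme1 (chr14:55578244-55578543, plus strand): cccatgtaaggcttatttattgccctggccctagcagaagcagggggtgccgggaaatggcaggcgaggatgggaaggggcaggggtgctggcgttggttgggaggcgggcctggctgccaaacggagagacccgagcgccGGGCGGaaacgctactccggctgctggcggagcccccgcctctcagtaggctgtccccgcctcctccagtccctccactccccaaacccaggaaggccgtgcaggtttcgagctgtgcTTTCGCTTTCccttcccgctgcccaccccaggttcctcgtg
Erap1 (chr13:74639603-74639902, plus strand): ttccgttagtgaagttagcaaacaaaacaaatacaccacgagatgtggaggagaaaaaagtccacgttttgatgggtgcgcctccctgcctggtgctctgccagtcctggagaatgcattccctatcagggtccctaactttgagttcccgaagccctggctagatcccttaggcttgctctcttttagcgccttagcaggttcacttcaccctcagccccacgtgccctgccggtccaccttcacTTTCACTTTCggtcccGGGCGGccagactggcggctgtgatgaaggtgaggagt
Psmb8 (chr17:34197945-34198244, plus strand): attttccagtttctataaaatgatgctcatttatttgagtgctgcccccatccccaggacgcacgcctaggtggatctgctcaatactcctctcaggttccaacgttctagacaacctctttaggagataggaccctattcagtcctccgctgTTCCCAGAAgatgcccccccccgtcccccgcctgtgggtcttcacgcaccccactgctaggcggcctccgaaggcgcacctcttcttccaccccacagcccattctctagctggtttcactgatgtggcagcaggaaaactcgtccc

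Of 32851 windows of the same length in the RefSeq table, 3.44% hold the response element letters, 8.3% the STAT letters, 20.7% the NF-kB letters, 37.4% CCAAT and 35.7% the GC box. The match in Erap1 begins 4 bases before the start and that in Psme1 begins 9 bases after it. In the main comparison below Psme1 was lower and Erap1 higher. Once a trend with gene length was removed, their log2 fold changes were -0.73 and -0.05. Whether the letters bear on either change was not tested. The Tap1 and Psmb9 region holds CCAAT and a GC box and none of the other letters in this window. The Psmb8 start used by RefSeq lies 474 bases inside the gene model of the table, and that of Psmb9 434 bases. For Psme1 and Erap1 the RefSeq start lies 371 and 285 bases inside the gene model. A match is a description of letters and not evidence of binding.

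In the comparison of Rb1 with vehicle, 9 of the 10 genes were lower with Rb1 and Erap1 was higher, each at an adjusted p under 0.05 (edgeR's quasi-likelihood test with Benjamini-Hochberg adjustment over all genes tested). The falls were largest for Psmb9, Psme2, Tapbpl, Psmb8 and Psme1, which dropped to between 2.07-fold and 3.0-fold lower levels, and they were small for Tap2 and Psmb10. Of all genes tested, 36.3% were called lower and 35.7% higher, so that many genes moved in this comparison. The median log2 fold change of the members was -0.97, against -0.01 for all genes tested. The groups of 2 libraries did not overlap in any of the 10 genes, as was the case in 86.3% of all genes tested. The replicate number is also the labels' entry for batch. Within replicates 1 and 2 the log2 differences were, for example, -1.73 and -1.43 in Psmb9, -0.60 and -0.71 in Tap1, -0.16 and -0.31 in Tap2, and 0.49 and 0.21 in Erap1. Where groups do not overlap the sign within each replicate is fixed, so the shared signs add nothing. The labels call the libraries biological replicates without saying how cultures were separated, so the p-values measure the spread between these libraries. For each gene the test draws this spread partly from the other genes tested. In RNA from a whole culture, fewer cells that express a gene and less RNA per cell cannot be told apart.

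The scale of the comparison bears on the weaker members. With library totals as divisors in place of TMM factors, 7 members were lower and 1 higher, where 27.1% and 45.3% of all genes tested were. On that scale the median gene had a log2 fold change of 0.23. Longer gene models were higher with Rb1 over the whole table: the median log2 fold change was -0.54 for models of over 1 and up to 2 kb, -0.27 over 2 and up to 3 kb, -0.05 over 3 and up to 5 kb, and 0.43 above 5 kb. With this length trend removed from each library, 7 members were lower and 0 higher, against 36.4% and 33.7% of all genes tested. With the replicate number as a block, 8 were lower and 1 higher, against 35.9% and 35.5%. The 7 called lower under all 3 scalings were Psmb8, Psmb9, Psme1, Psme2, Tap1, Tapbp and Tapbpl.

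**Figure D1:**
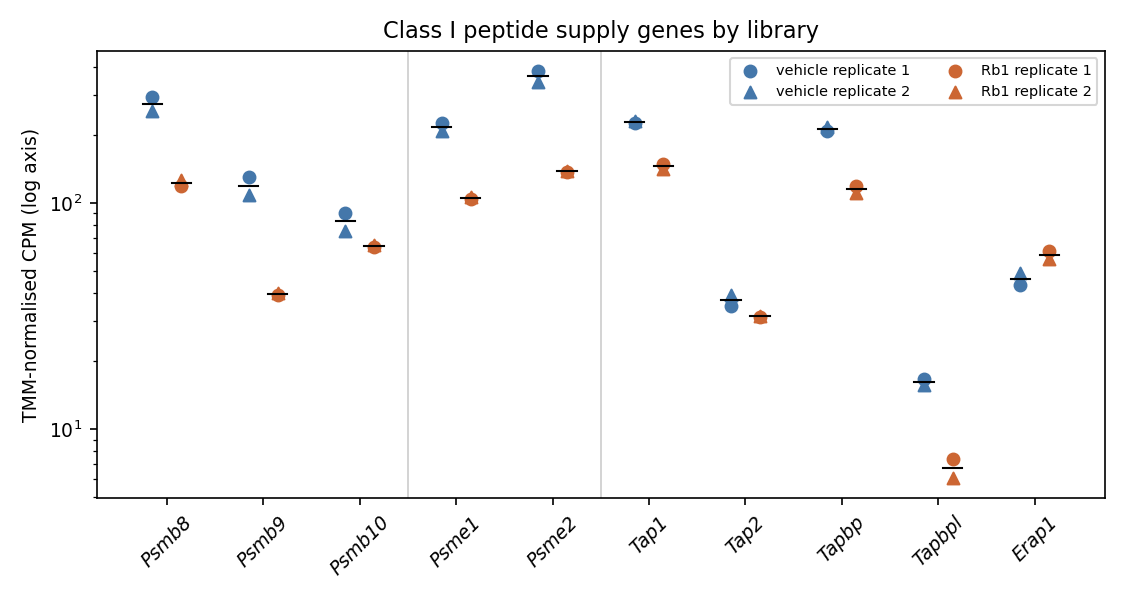
TMM-normalised CPM (log axis) of the 10 genes in each library, with circles for replicate 1, triangles for replicate 2 and short lines for group means; vertical lines separate the immunoproteasome, the PA28 activator and the TAP, tapasin and trimming genes. Both Rb1 libraries lie below both vehicle libraries in 9 genes and above them in Erap1.

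Among the immunoproteasome subunits, Psmb9 (ENSMUSG00000096727), which encodes the subunit that replaces PSMB6, stood at 129.9 and 108 CPM with vehicle and at 39.2 and 40.2 CPM with Rb1. The Rb1 libraries were about equal and far below both vehicle libraries. The means of 119 ± 15.5 and 39.7 ± 0.681 CPM (SD, n = 2) give a log2 fold change of -1.58 (SE 0.10, edgeR adjusted p = 7.3e-08). Only 9.23% of all genes tested had a lower log2 fold change than Psmb9. Psmb8 (ENSMUSG00000024338), which replaces PSMB5, stood at 295 and 255 CPM with vehicle and 119.6 and 126 CPM with Rb1 (log2 fold change -1.16, SE 0.08, edgeR adjusted p = 2.3e-07). Its 2 groups were separated by a gap larger than the spread within either.

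Psmb10 (ENSMUSG00000031897), which replaces PSMB7, behaved differently. It stood at 90.7 and 75.2 CPM with vehicle and 63.9 and 65.5 CPM with Rb1 (log2 fold change -0.36, SE 0.10, edgeR adjusted p = 0.00543). The second vehicle library was closer to the Rb1 libraries than to the first vehicle library. On library totals it was no longer called (adjusted p = 0.326 at a log2 fold change of -0.11), and with the length trend removed the sign turned (log2 fold change 0.08, adjusted p = 0.328). Over its alternatives with all 4 libraries the adjusted p lay between 1.9e-04 and 0.371. With 1 library left out the log2 fold change lay between -0.49 and -0.23.

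The PA28 activator genes fell together. Psme2 (ENSMUSG00000079197), the beta subunit, was at 383 and 345 CPM with vehicle and at 138 and 139 CPM with Rb1 (log2 fold change -1.40, SE 0.08, edgeR adjusted p = 2.9e-08). Psme1 (ENSMUSG00000022216), the alpha subunit, was at 227 and 208 CPM with vehicle and at 104 and 106 CPM with Rb1 (log2 fold change -1.05, SE 0.07, edgeR adjusted p = 1.8e-07). In both genes the Rb1 libraries agreed closely and the vehicle libraries were well above them. Per kb of gene model, Psme2 was 2.11 and 2.07 times as high as Psme1 in the vehicle libraries and 1.66 and 1.63 times in the Rb1 libraries. The change in this ratio was -0.35 ± 0.02 (SE) on the log2 scale and -0.24 with the length trend removed.

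Of the transporter subunits, Tap1 (ENSMUSG00000037321) fell and Tap2 differed little. Tap1 was at 226 and 230.1 CPM with vehicle and at 149 and 141 CPM with Rb1 (log2 fold change -0.65, SE 0.07, edgeR adjusted p = 5.8e-06). With the length trend removed its log2 fold change was -0.86, and with library totals -0.41. Tap2 (ENSMUSG00000024339), the other subunit of the transporter, was at 35 and 39.3 CPM with vehicle and at 31.3 and 31.8 CPM with Rb1 (log2 fold change -0.24, SE 0.09, edgeR adjusted p = 0.0405). The gap between its groups was smaller than the difference between its vehicle libraries. Its call was lost in 12 of 15 alternatives, among them DESeq2 (adjusted p = 0.196), the fit with the replicate number as a block (adjusted p = 0.0587) and the fits without vehicle replicate 2 (adjusted p = 0.155), without Rb1 replicate 1 (adjusted p = 0.233) and without Rb1 replicate 2 (adjusted p = 0.181). With library totals its sign turned (log2 fold change 0.0073, adjusted p = 0.956). Over the alternatives with all 4 libraries its adjusted p lay between 0.0355 and 0.956. Per kb of gene model, Tap1 exceeded Tap2 by 4.46 and 4.04 times in the vehicle libraries and by 3.29 and 3.07 times in the Rb1 libraries. Per kb of the APPRIS principal transcript in GENCODE M21 the mean ratios were 7.17 with vehicle and 5.37 with Rb1.

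Tapasin bridges TAP and the empty class I molecule. Its gene Tapbp (ENSMUSG00000024308) was at 209 and 217 CPM with vehicle and at 119 and 111 CPM with Rb1 (log2 fold change -0.89, SE 0.07, edgeR adjusted p = 5.4e-07). The tapasin-related peptide editor gene Tapbpl (ENSMUSG00000038213) had low levels, 16.7 and 15.7 CPM with vehicle and 7.4 and 6.09 CPM with Rb1 (log2 fold change -1.26, SE 0.15, edgeR adjusted p = 1.1e-05). In both genes the libraries of a group agreed and the Rb1 libraries were lower. The Tapbpl model lies with all its 7928 bases inside that of Vamp1 on the opposite strand, and Vamp1, which encodes a vesicle fusion protein, rose (log2 fold change 1.28, edgeR adjusted p = 5.4e-07). No source used here gives the strand use, so reads of these genes may not have been told apart. Tapbp shares 3421 bases with Zbtb22 on the same strand, which did not pass (log2 fold change -0.17, adjusted p = 0.14).

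Erap1 (ENSMUSG00000021583), the endoplasmic reticulum aminopeptidase, stood at 43.6 and 48.8 CPM with vehicle and at 61.3 and 56.6 CPM with Rb1 (log2 fold change 0.35, SE 0.09, edgeR adjusted p = 0.00423). Both Rb1 libraries were above both vehicle libraries. It has the longest gene model of the members, 7280 bases, and with the length trend removed its log2 fold change was -0.05 (adjusted p = 0.57). Its call was also lost without Rb1 replicate 1 (log2 fold change 0.30). Over its alternatives with all 4 libraries the adjusted p lay between 4.3e-05 and 0.612. With 1 library left out the log2 fold change lay between 0.26 and 0.44. Its last 834 bases overlap the calpastatin gene Cast on the opposite strand, which did not pass (log2 fold change 0.07, adjusted p = 0.391).

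Taken by role, the 5 genes of the immunoproteasome and the activator had a median log2 fold change of -1.16 (range -1.58 to -0.36), with 5 lower. The 5 genes of transport, tapasin and trimming had a median of -0.65 (range -1.26 to 0.35), with 4 lower and 1 higher. Among all genes tested 36.3% were lower and 35.7% higher. The ranges overlap, and the difference between the medians was not tested. With library totals the medians were -0.92 and -0.41, and with the length trend removed they came closer, to -0.96 and -0.77. The immunoproteasome and activator genes had 4 lower on either of these scales. The genes of transport, tapasin and trimming had 3 lower and 1 higher with library totals, where 27.1% and 45.3% of all genes tested were. With the length trend removed they had 3 lower and 0 higher, against 36.4% and 33.7%.

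**Figure D2:**
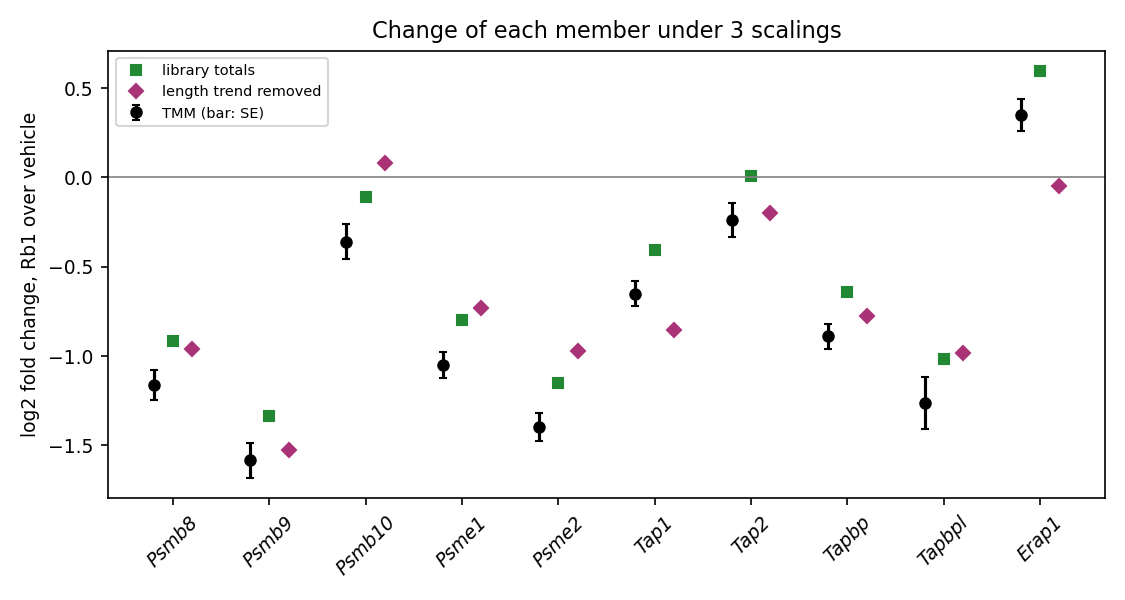
Log2 fold change of Rb1 over vehicle for each gene with TMM factors (circles, bars give the SE), with library totals (squares) and with the length trend of each library removed (diamonds). Psmb8, Psmb9, Psme1, Psme2, Tap1, Tapbp and Tapbpl are below 0 on all 3 scales, while Psmb10, Tap2 and Erap1 lie near 0 on at least 1 of them.

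Levels between genes were compared per kb of gene model, as TMM-normalised CPM per kb. With vehicle the order was Psme2 (206), Psmb8 (101), Psme1 (98.5), Tapbp (64.6), Psmb10 (48.6), Tap1 (41.6), Psmb9 (32.5), Tap2 (9.83), Tapbpl (6.89) and Erap1 (6.35). The ranges of the vehicle libraries overlapped for the neighbours Psmb8 and Psme1 and for Tapbpl and Erap1. With Rb1 the order was Psme2 (78.3), Psme1 (47.6), Psmb8 (44.9), Psmb10 (37.9), Tapbp (34.9), Tap1 (26.5), Psmb9 (10.9), Tap2 (8.34), Erap1 (8.1) and Tapbpl (2.87), and only Tap2 and Erap1 overlapped among neighbours. The models of the table join all exons, which understates genes with rarely used exons. Per kb of the APPRIS principal transcript in GENCODE M21, a length chosen after the data were seen, Psmb9 moved from rank 7 to rank 4 with vehicle, at 88 CPM per kb, and Psme2 ranked first in both groups.

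The immunoproteasome subunits were then set against the constitutive subunits they replace, which the rule did not use. Psmb6, the constitutive partner of Psmb9, fell from 513 and 419.9 CPM to 141 and 138 CPM (log2 fold change -1.74, SE 0.10, edgeR adjusted p = 2.8e-08), a 3.35-fold lower level. This was the lowest log2 fold change of the 14 constitutive core genes. Psmb5, the partner of Psmb8, fell from 329 and 278 to 221 and 223 CPM (log2 fold change -0.45, SE 0.09, edgeR adjusted p = 5.7e-04). Psmb7, the partner of Psmb10, fell from 269 and 252 to 184 and 189.9 CPM (log2 fold change -0.48, SE 0.07, edgeR adjusted p = 8.9e-05). With the length trend removed Psmb5 turned to 0.12 (adjusted p = 0.0618).

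The 3 pairs differed. Psmb8 over Psmb5 was 0.295 and 0.301 per kb in the vehicle libraries and 0.178 and 0.185 in the Rb1 libraries, a log2 change of -0.72 ± 0.03 (SE). Psmb9 over Psmb6 was 0.13 and 0.132 with vehicle and 0.142 and 0.149 with Rb1, a log2 change of 0.16 ± 0.04. Psmb10 over Psmb7 was 0.675 and 0.599 with vehicle and 0.695 and 0.692 with Rb1, a log2 change of 0.12 ± 0.09. With the length trend removed these changes were -1.08, -0.18 and 0.46, so that the fall of Psmb8 against Psmb5 was larger, the sign for Psmb9 turned, and the change for Psmb10 went from about its error to a larger rise. The Psmb10 ratio rested on the vehicle libraries, with a log2 change of 0.21 without vehicle replicate 1 and 0.038 without vehicle replicate 2. The ratios are given with their SE only, since the smallest p of a two-sided exact permutation test of 2 libraries against 2 is 0.333. Per kb of the principal transcript the mean vehicle ratios were 0.501 for Psmb8 over Psmb5, 0.151 for Psmb9 over Psmb6 and 0.281 for Psmb10 over Psmb7. Per kb of gene model they were 0.298, 0.131 and 0.637. The choice of length thus changes the levels and order of the pairs with vehicle, and it leaves the log2 changes as they are.

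**Figure D3:**
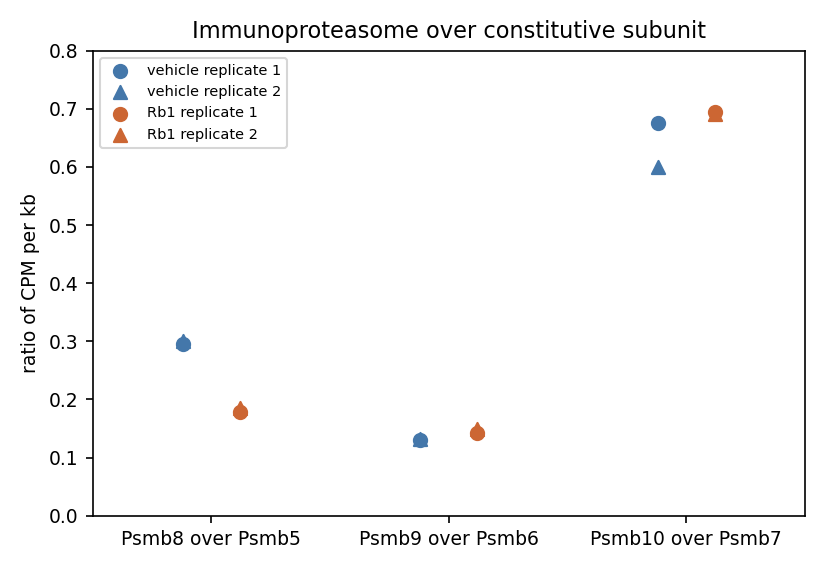
Ratio of CPM per kb of gene model between each immunoproteasome subunit and the constitutive subunit it replaces, with 1 point per library (circles replicate 1, triangles replicate 2). The vehicle libraries lie at 0.295 and 0.301 for Psmb8 over Psmb5 and the Rb1 libraries at 0.178 and 0.185, while the other ratios changed by 0.16 and 0.12 on the log2 scale. The levels and order of the pairs depend on the length used and differ per kb of the principal transcript.

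Other genes of the pathway were read from lists written with earlier results of these data known. Beside the counts below, 36.3% of all genes tested were lower and 35.7% higher. These shares were 27.1% and 45.3% with library totals, and 36.4% and 33.7% with the length trend removed. Of the 14 constitutive core genes 14 were lower and 0 higher (median log2 fold change -0.50). Of these, 10 were lower with library totals and 9 with limma on log2(FPKM + 1) without a filter. With the length trend removed 10 were lower and 1 higher, and with the replicate block as well 9 were lower and 1 higher. With Psmb6 the smallest p belonged to Psma6 (log2 fold change -0.83), Psma7 (-0.72) and Psmb4 (-0.64). Of 18 genes of the 19S regulator, which unfolds substrates, 14 were lower and 2 higher (median -0.52), led by Psmd8 (-1.48), Psmd4 (-0.96), Psmc4 (-0.79) and Psmc6 (-0.90). The lower count of this list was 10 with library totals and 12 with the length trend removed. The 2 higher became 1 without either Rb1 library and with the length trend removed. The median of the immunoproteasome and activator genes, -1.16, was below that of either list on this scale and with the length trend removed, where the core and 19S medians were -0.27 and -0.32. The difference was not tested.

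Among 8 other activators, inhibitors and assembly factors 5 (62.5%) were lower and 2 (25%) higher (median -0.25), against 36.3% and 35.7% of all genes tested. The count of lower genes was 3 with library totals, with DESeq2, with the length trend removed and without Rb1 replicate 2, and 2 with limma on log2(FPKM + 1) without a filter. The count of higher genes was 1 without either Rb1 library. Psme4, which encodes the activator PA200, rose from 71.4 ± 9.85 to 147 ± 2.92 CPM (log2 fold change 1.04, edgeR adjusted p = 1.4e-06). It was higher on all 3 scales, in contrast to Psme1 and Psme2, but by less with the length trend removed (0.57). Psme3, the nuclear relative of the PA28 subunits, averaged 221 and 192 CPM (log2 fold change -0.20, edgeR adjusted p = 0.027), a call that was lost with the replicate block (adjusted p = 0.0569), with library totals (adjusted p = 0.645), with the length trend removed (adjusted p = 0.655) and without either Rb1 library (adjusted p = 0.252 and 0.231). Psmg4 (-0.69), Psmg3 (-0.74) and the proteasome assembly factor gene Pomp (-0.50) were lower, of which Psmg4 stood at -0.06 (adjusted p = 0.608) with the length trend removed.

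The genes that receive the peptides split in 2. The class I heavy chain genes H2-K1 and H2-D1 and the light chain gene B2m had log2 fold changes of -1.77, -1.63 and -1.65, each below that of Psmb9, the lowest member. With the length trend removed B2m stood at -1.06 and H2-D1 at -1.40, both above Psmb9 at -1.52, and H2-K1 at -1.55. B2m was at 5231 and 4196 CPM with vehicle and at 1478 and 1536 CPM with Rb1, a 3.13-fold lower level (edgeR adjusted p = 1.4e-07). The general glycoprotein folding genes did not follow: Uggt1 (1.02), Canx (0.30) and Calr (0.21) were higher, each on all 3 scales. With the length trend removed they stood at 0.28, 0.20 and 0.39. Pdia3 (-0.18, edgeR adjusted p = 0.0502) did not pass. The call of Calr was lost with the replicate block (adjusted p = 0.0863), and without Rb1 replicate 1 or 2 those of Calr (adjusted p = 0.183 and 0.299) and Canx (adjusted p = 0.121 and 0.0762) were lost. Class I heavy chain genes share sequence, so their single values are uncertain.

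Of 8 other peptidases that trim or destroy peptides 0 were lower and 7 higher (median 0.42, and 0.10 with 4 higher when the length trend was removed). Among all genes tested 35.7% were higher, and 33.7% with the length trend removed. Lnpep, the insulin-regulated aminopeptidase of cross-presenting endosomes, rose from 64.1 ± 3.18 to 149.8 ± 4.71 CPM (log2 fold change 1.23, edgeR adjusted p = 8.1e-08). The cytosolic aminopeptidase gene Npepps rose with a log2 fold change of 0.98, Tpp2 with 0.54 and Blmh with 0.41. Lnpep and Npepps were higher on all 3 scales, but by less with the length trend removed (0.43 and 0.59). Tpp2 turned to -0.04 (edgeR adjusted p = 0.6) with the length trend removed.

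**Figure D4:**
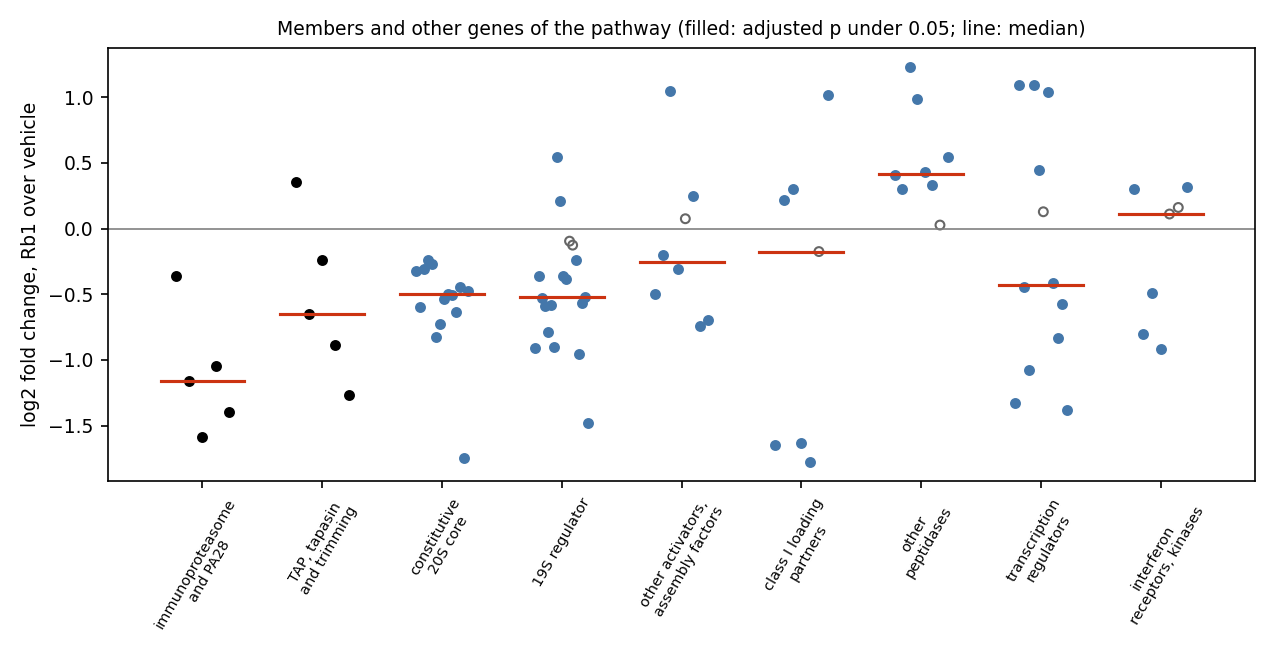
Log2 fold change of Rb1 over vehicle for the members (black) and for the tested genes of the comparison lists (blue), with open circles for genes that did not pass and red lines for medians. The immunoproteasome and activator genes have a median of -1.16, the constitutive core -0.50 and the other peptidases 0.42.

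Transcription factors known to act on these genes moved both ways: 7 of 12 tested (58.3%) were lower and 4 (33.3%) higher (median -0.43). Among all genes tested 36.3% were lower and 35.7% higher, so the share of higher factors was near that of all genes. Irf1, an interferon-induced activator of Psmb9 and Tap1, was at 64.1 and 61.4 CPM with vehicle and at 24.3 and 25.7 CPM with Rb1 (log2 fold change -1.33, edgeR adjusted p = 1.1e-07). Stat2 (-1.38) and Irf9 (-1.08) of the interferon signalling complex were lower as well. Nlrc5, the class I transactivator, was at 81.6 and 92.7 CPM with vehicle and at 122 and 116 CPM with Rb1 (log2 fold change 0.45, edgeR adjusted p = 4.9e-04), which turned to -0.04 (adjusted p = 0.629) with the length trend removed. Its DNA-binding partner Rfx5 (1.04), Irf2 (1.09) and the NF-kB gene Nfkb1 (1.09) were higher on all 3 scales. With the length trend removed these 3 stood at 0.83, 0.68 and 0.40. The other subunit genes of the RFX complex, Rfxap (-0.83, edgeR adjusted p = 1.2e-04) and Rfxank (-0.41, edgeR adjusted p = 0.0335), were lower, and Rfxank did not pass with library totals (adjusted p = 0.369). The class II transactivator gene Ciita had 0 to 5 counts per library.

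Interferon genes were near the limit of detection. The counts of Ifnb1 were 16 and 8 in the vehicle libraries, then 2 and 1 in the Rb1 libraries, and Ifng had 5 counts in vehicle replicate 1 and 0 in the other libraries, which allows up to 3 counts in each of them by counting error alone. Of 7 receptors and kinases tested 3 (42.9%) were lower and 2 (28.6%) higher, near the 36.3% and 35.7% of all genes tested. The interferon gamma receptor genes Ifngr2 (-0.92) and Ifngr1 (-0.49) and the type I receptor gene Ifnar2 (-0.80) were lower, and the kinase gene Tyk2 (0.31) and Ifnar1 (0.30) were higher. With the length trend removed 0 of these were higher, as was the case without Rb1 replicate 1, while 4 were higher with library totals and without vehicle replicate 2.

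The neighbours of the members on the chromosome moved both ways. Of 28 tested protein-coding genes within 50 kb of a member 7 (25%) were lower and 10 (35.7%) higher, against 36.3% and 35.7% of all genes tested (median log2 fold change 0.10). Around the run on chromosome 17, the class II editor gene H2-DMb1 on the Psmb9 side averaged 9.55 and 7.17 CPM (log2 fold change -0.41, edgeR adjusted p = 0.0297). H2-Ob on the Tap2 side averaged 0.656 and 0.636 CPM (log2 fold change -0.05, adjusted p = 0.933). Within the run, the log2 fold changes ranged from -1.58 for Psmb9 through -1.16 for Psmb8 and -0.65 for Tap1 to -0.24 for Tap2. Psmb9 and Tap1, whose start windows overlap, thus differed in the size of their change.

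**Figure D5:**
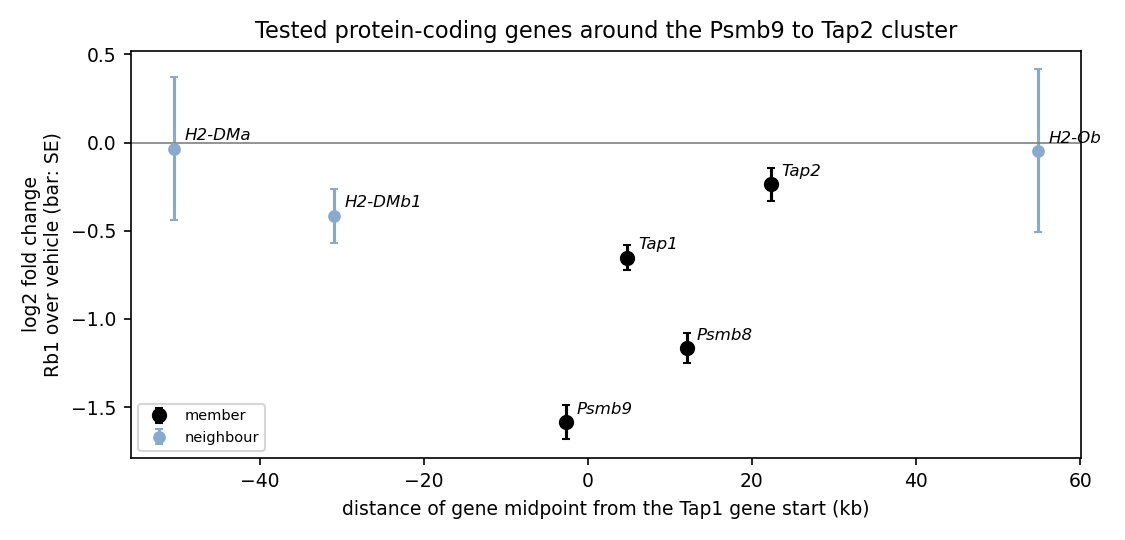
Log2 fold change (bars give the SE) of tested protein-coding genes around the run of Psmb9, Tap1, Psmb8 and Tap2, against the distance of each gene's midpoint from the Tap1 gene start in kb. The 4 members (black) span -1.58 to -0.24, and the 3 neighbours (blue) lie between -0.41 and -0.03.

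Around the activator genes, Dcaf11 on the Psme1 side (-0.10, adjusted p = 0.281) and Emc9 between the 2 genes (0.07, adjusted p = 0.77) did not pass, and Rnf31, a ubiquitin ligase gene 594 bases beyond Psme2, was higher (0.30, edgeR adjusted p = 0.0126). Next to Tapbp, Daxx was lower (-0.31, edgeR adjusted p = 0.0044) and Rgl2 did not pass (0.13, adjusted p = 0.166). Next to Psmb10, Ctrl did not pass (0.16, adjusted p = 0.781) and the ion cotransporter gene Slc12a4 was slightly higher (0.24, edgeR adjusted p = 0.0441). Beside Tapbpl, Mrpl51 was lower (-0.60). Cd27 rose from 1 count in each vehicle library to 56 and 61 counts in the Rb1 libraries. Its means were 0.0597 and 2.97 CPM (log2 fold change 5.48). The Cd27 model also lies inside that of Vamp1 on the opposite strand, so reads of these genes may not have been told apart.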

How the data were processed

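Gene expression was measured in 4 RNA libraries of DC2.4 cells, 2 with vehicle and 2 with Rb1, grouped by the labels' titles. The authors deposited raw counts per gene, whole numbers with different totals per library (17829784 to 18641021), and FPKM values of the same genes, per the series' design text; replicates were not pooled. The libraries were read in pairs, per the labels' protocols; for the aligner, counting program and strand use, nothing is given in the sources used. Builds GRCm39 and mm39 are named by the submitters' processing notes, but of the 54495 gene IDs found in GENCODE M21 (GRCm38) 98.3% have the same position there, so coordinates are named GRCm38. Each FPKM value is the count per kb over a constant per library, 0.908 to 1.09 times the total.

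Counts were tested with edgeR 4.0.16 (quasi-likelihood, TMM, filterByExpr, robust, two-sided, no term besides group), leaving 2 residual degrees of freedom. P-values were adjusted over 13518 genes, threshold 0.05. The procedure was run on simulated data with few changed genes and no length trend, which does not check the scaling of these data. The SE is the log2 fold change over the square root of F. CPM are TMM-normalised, and group values are mean ± SD with n = 2. The length trend is a lowess curve (span 0.3) of each library's log2 deviation on log2 gene length. Alternatives used DESeq2 1.42.0, limma 3.58.1 on log2(FPKM + 1) or log2(FPKM + 0.1), other scalings and filters, and left-out libraries. Replicates differed beyond sampling noise (chi-square per degree of freedom 11.8 with vehicle and 2.87 with Rb1). In the labels the batch entry is the replicate number, which was taken to pair the libraries, although same-numbered deviations correlated at -0.052 across genes. Counting limits cover counting error only.

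Members and lists were chosen with earlier results of these data known. All members were named, with the constitutive partners, B2m, H2-K1, H2-D1, Nlrc5, Irf1, the nearest tested neighbours and up to 4 called genes with the smallest p per list. Calr, Canx, Pdia3, Psme3, Rfx5, Rfxap, Rfxank, Irf2, Ifnar1, Ciita, Ifnb1, Ifng, Zbtb22, Vamp1 and Cast were named after their values were seen. So were the markers Itgax, Zbtb46, Ptprc, Adgre1, Csf1r, Batf3 and Xcr1. A further gene that the naming rule covers is not reported here. Nrdc is listed in the table under its older symbol.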

Additional observations from a re-analysis of the deposited data

How the results depend on the processing

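Psmb8, Psmb9, Psme1, Psme2, Tap1, Tapbp and Tapbpl stayed lower and past the threshold in all 15 alternatives. The number of members called lower, 9 in the fit reported, was 7 to 9. Psmb10 turned to 0.080 on the log2 scale (adjusted p = 0.328) with the length trend removed and to 0.082 (adjusted p = 0.371) with the replicate block as well. Erap1 turned to -0.050 (adjusted p = 0.57) with the length trend removed and to -0.050 (adjusted p = 0.612) with the block as well. Tap2 turned to 0.0073 (adjusted p = 0.956) with library totals. The cause was not tested.

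The number of members called higher, 1, became 0 with the length trend removed, 0 with the length trend removed and the replicate block, and 0 with limma on log2(FPKM + 1) without a filter. Leaving out each library in turn gave 0 to 1. The log2 change of Psmb8 over Psmb5, -0.72, became -1.08 with the length trend removed, that of Psmb9 over Psmb6, 0.16, became -0.18, and that of Psmb10 over Psmb7, 0.12, became 0.46. The replicate block alone left 8 members lower and 1 higher and ended the call of Tap2 (adjusted p = 0.0587), and it changed no other member's call. Tapbpl rests on the fewest counts of the members, 118 to 279 per library.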
